A study of Mus musculus with 68 samples.

Results

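The transcripts of 8 genes of gastric surface, mucous neck and Brunner gland epithelium were followed through 23 specimens of mouse intestine and intestinal tumours: Tff1, Tff2, Gkn3, Muc6, Muc5ac, Dpcr1, Ctse and Anxa10. They were selected by name from the 23356 genes of the table, with their levels in the duodenal tumours already known. Their levels there are therefore given as a description, without a test. Of the 8 genes, 7 passed the filter for testing (1 FPKM or more in at least 2 specimens), and Muc5ac did not. FPKM are sequenced fragments scaled to transcript length and library size, so levels of different genes are compared per length.

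The study asked which genes and pathways go with Cftr deficiency in the intestine of Apc wildtype mice and of ApcMin mice. Cftr encodes an epithelial chloride and bicarbonate channel, and the Min allele of Apc, a negative regulator of Wnt signalling, gives mice intestinal tumours. All mice were labelled C57BL/6 and 3 months old, with no drug named in the labels. Apc wildtype mice gave normal colon (2 specimens labelled Cftr wildtype and 2 labelled knockout), normal duodenum (2 and 2) and, where labelled knockout, a pair of duodenal tumours and a single colon tumour. From ApcMin mice came ileum tumours (2 Cftr wildtype, 2 labelled knockout), colon tumours (2 Cftr wildtype, 2 heterozygous, 2 labelled knockout) and 2 heterozygous duodenal tumours. Heterozygous animals carried the label knockdown as well. Colon was labelled whole tissue and duodenum epithelium, whereas the design text gives epithelial cells for colon and duodenum without villi. For the Apc wildtype knockout the protocol names a floxed Cftr allele with Villin-Cre, which acts in intestinal epithelium, and for ApcMin mice no source used here names the Cftr allele. No normal ileum and no stomach was analysed here.

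The stomach lines its surface with cells that secrete trefoil peptides, gastrokines and gel-forming mucin, and its deeper mucous neck and pyloric gland cells make Muc6 and Tff2. Brunner glands, which lie under the duodenal villi next to the pylorus, share that gland programme and secrete alkaline mucus. Healthy intestinal epithelium instead makes Tff3 and Muc2 in goblet cells, and in human pathology gastric gene expression in the intestine is known as gastric metaplasia, a feature of some serrated and pyloric gland tumours.

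The specimens carried 10 animal numbers. Within each Cftr label, normal colon and normal duodenum of the same specimen number came from the same animal. The tumours of Apc wildtype mice came from other animals than the normal tissue. The 2 tumours of each ApcMin genotype and organ carried 1 number, ileum and colon tumours of the wildtype and of the knockout label came from the same animal, and duodenal tumour 2 and the colon tumour of the Apc wildtype mice came from 1 animal. Cftr genotype and animal therefore cannot be told apart among ApcMin tumours, and p-values measured the spread between specimens. Both sequencing runs covered 11 specimens and a single run the other 12, and the 68 columns spanned a 1.84-fold range of relative depth. Specimens 1 and 2 of wildtype duodenum were no further apart than the noise between lanes (0.927 and 0.919 times that noise in the runs, against 1.94 to 6.95 in the other groups) and were counted as 1 sample in tests. Cftr itself, read over the whole gene, gave 21.7 to 22.2 FPKM in wildtype colon and 25.9 to 30.5 FPKM in the colon labelled knockout. Wildtype duodenum held 31.3 and 31.975 FPKM, and duodenum labelled knockout 32.96 and 47.2 FPKM. The knockout-labelled duodenal tumours, at 53.5 and 77.2 FPKM, were the highest of all specimens. ApcMin ileum tumours held 40.1 and 31.2 FPKM under that label and 23.4 and 27.3 FPKM in wildtype. ApcMin colon tumours overlapped, at 14.3 and 21.3 FPKM against 18.05 and 24.8 FPKM. In normal tissue Cftr was thus not lower under the knockout label. Since a whole-gene value does not read the floxed exon alone, it does not check the label. Markers of intestinal epithelium (Cdx1, Cdx2, Vil1, Cdh17 and 5 more) summed to 1269 to 3760 FPKM over the specimens, and no specimen had any of the 9 at 0.

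Tff1 encodes a trefoil peptide of gastric surface mucus. It was at 118 and 42.1 FPKM in the duodenal tumours labelled knockout, and at 46.7 and 1.50 FPKM in the ApcMin heterozygous duodenal tumours. Wildtype duodenum was at 0.170 and 0.149 FPKM, and duodenum labelled knockout was listed at 0 and at 7.29 FPKM. Against that highest normal duodenum, the level was 16.2 and 5.78 times as high in the knockout-labelled tumours, 6.41 times in heterozygous tumour 1 and 0.205 times in heterozygous tumour 2. Of the 4 duodenal tumours 3 thus stood above every other specimen, and heterozygous tumour 2 lay among the ileum tumours, which were at 2.73 and 3.40 FPKM with wildtype Cftr and at 1.07 and 2.52 FPKM when labelled knockout. In colon tumours Tff1 stayed at 0.507 to 1.90 FPKM, against 0 to 0.667 FPKM in normal colon. The gene lies at chr17:31161395-31165277 on the minus strand (GRCm38) with 3 exons in its consensus coding transcript, and an antisense gene, Gm15318, covers 1660 of its bases.

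Tff2, a trefoil peptide of mucous neck, pyloric and Brunner gland cells, was likewise highest in knockout-labelled tumour 1 and lowest in heterozygous tumour 2 among the duodenal tumours. Its level was 131 and 50.9 FPKM in the knockout-labelled duodenal tumours and 41.7 and 0.660 FPKM in the heterozygous ones. Normal duodenum was at 0.237 and 0.371 FPKM in wildtype, and at 12.1 and 1.59 FPKM in specimens labelled knockout. Ileum tumours were at 0.714, 2.26, 0.975 and 1.26 FPKM, all below the higher of the knockout-labelled duodenum specimens. Colon tumours lay between 0.194 and 3.88 FPKM and normal colon between 0.0515 and 1.10 FPKM, so their ranges overlapped. Tff2 sits 17.1 kb from Tff1 on chromosome 17, with Tff3 a further 11.4 kb away and no other protein-coding gene between them. Tff3, the trefoil peptide of intestinal goblet cells, was at 3252 and 7054 FPKM in the heterozygous duodenal tumours, at 3688 and 5030 FPKM in the knockout-labelled ones and at 3302 to 4137 FPKM in normal duodenum. Among the duodenal tumours it was highest in the one where Tff1 and Tff2 were lowest.

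Gkn3 encodes a gastrokine, a secreted protein of gastric mucous cells. It reached the highest level of the 8 genes, with 761 and 38.3 FPKM in the knockout-labelled duodenal tumours and 551 and 92.5 FPKM in the heterozygous ones. Ileum tumours held 179 and 336 FPKM with wildtype Cftr and 248 and 223 FPKM labelled knockout. Wildtype duodenum was at 14.6 and 15.7 FPKM and knockout-labelled duodenum at 9.37 and 6.61 FPKM. All 8 tumours of the small intestine thus lay above all 4 normal duodenum specimens, the lowest of them, knockout-labelled duodenal tumour 2, at 2.44 times the highest. Of all genes tested 11.9% were separated in this way, and of the 7 tested here Gkn3, Muc6, Ctse and Anxa10 were. The 8 genes were chosen with the duodenal tumour levels known, so nothing is read from this share. No normal ileum was analysed, so ileum tumours were also set against duodenum. Muc6 was separated only narrowly, with 0.346 FPKM in knockout-labelled duodenal tumour 2 against 0.281 FPKM in wildtype duodenum 2. In run 2 columns that order turned, at 0.327 against 0.510 FPKM. Gkn3 in colon tumours ranged from 1.39 to 29.4 FPKM, across its levels in normal duodenum, and normal colon was at 0.284 to 0.822 FPKM. The promoter is shown because Gkn3 was the member with the highest level, with a match to the GATA motif AGATAA in capitals. The match begins 4 bases before the start site, and 11.2% of the 32851 promoter windows in the RefSeq table (GRCm38.p6) hold 1 on either strand.
Gkn3 promoter, chr6:87388886-87389185, minus strand: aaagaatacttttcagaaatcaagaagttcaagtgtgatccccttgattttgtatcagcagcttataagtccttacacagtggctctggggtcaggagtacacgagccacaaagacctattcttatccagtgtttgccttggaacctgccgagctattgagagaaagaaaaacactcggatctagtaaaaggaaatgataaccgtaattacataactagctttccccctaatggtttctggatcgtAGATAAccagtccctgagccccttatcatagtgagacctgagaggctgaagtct

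Gkn1 and Gkn2, gastrokines of surface mucous cells, neighbour Gkn3 at chr6:87383256-87388935, with Gkn2 3.76 kb away. In knockout-labelled duodenal tumour 1 they were at 174 and 132 FPKM. Tumour 2 of that label was at 4.61 FPKM of Gkn1 and 0.721 FPKM of Gkn2, and heterozygous tumours 1 and 2 at 29.5 and 2.82 FPKM of Gkn1 and 2.26 and 0.139 FPKM of Gkn2. Ileum tumours, with Gkn3 at 179 FPKM or more, had 2.96 to 45.1 FPKM of Gkn1 and 0.114 to 1.21 FPKM of Gkn2. High Gkn3 thus came with high Gkn2 in knockout-labelled duodenal tumour 1, and with little Gkn2 in heterozygous duodenal tumour 1 and the 4 ileum tumours.

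Muc6 encodes the gel-forming mucin of gastric gland and Brunner gland cells. It was at 19.6 FPKM in knockout-labelled duodenal tumour 1 and at 0.346 FPKM in tumour 2, a 56.5-fold gap within 1 label. Heterozygous duodenal tumours were at 32.9 and 4.62 FPKM. The 4 ileum tumours lay close together at 17.6, 18.8, 22.9 and 18.0 FPKM. In normal duodenum Muc6 was at 0.0698 and 0.281 FPKM in wildtype and at 0.0672 and 0.0682 FPKM labelled knockout, and in normal colon it did not exceed 0.110 FPKM. ApcMin colon tumours held 0.880 and 1.48 FPKM with wildtype Cftr, 0.275 and 0.297 FPKM when heterozygous and 1.08 and 0.799 FPKM labelled knockout, all above normal colon and all below the heterozygous duodenal and the ileum tumours. Heterozygous tumour 2, lowest of the 4 duodenal tumours in both Tff1 and Tff2, had more Muc6 than knockout-labelled tumour 2. The Muc6 window is shown because tumours of the 2 labels overlapped in this gene, and its capitals mark AGATAA, which begins 194 bases before the start site.
Muc6 promoter, chr7:141655344-141655643, minus strand: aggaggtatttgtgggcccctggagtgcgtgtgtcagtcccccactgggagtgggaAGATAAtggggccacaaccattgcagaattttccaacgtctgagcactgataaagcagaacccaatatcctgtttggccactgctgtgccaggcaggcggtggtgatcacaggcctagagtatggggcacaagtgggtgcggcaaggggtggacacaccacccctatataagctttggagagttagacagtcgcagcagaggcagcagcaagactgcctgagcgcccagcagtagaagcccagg

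Muc5ac encodes the gel-forming mucin of gastric surface cells and lies on chromosome 7, 133.7 kb from Muc6, with Muc2 between them. It did not reach 1 FPKM in any specimen. Its highest values were 0.309 FPKM in knockout-labelled duodenal tumour 1, 0.309 and 0.0839 FPKM in the heterozygous duodenal tumours, and 0.313, 0.231, 0.248 and 0.419 FPKM in the ileum tumours. Knockout-labelled duodenal tumour 2 was at 0.00249 FPKM, knockout-labelled duodenum 2 at 0.09997 FPKM and all other normal tissue and colon tumours at 0.0346 FPKM or less, with 33 of the 68 columns listed at 0. No fold is given, since these levels are low in every group. Muc5b, its other neighbour, was at 0.00444 FPKM or less in all 23 specimens, and Muc2, the goblet cell mucin, at 92.6 to 853 FPKM.

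Dpcr1, named Mucl3 in the annotation, encodes a mucin-like protein. It reached 83.5 FPKM in knockout-labelled duodenal tumour 2 and 9.54 FPKM in tumour 1. Heterozygous duodenal tumours were at 2.49 and 0.0971 FPKM. Ileum tumours were at 0.578, 0.522, 0.435 and 1.10 FPKM, and all other specimens at 0.480 FPKM or less. Like Ctse and Anxa10, and unlike the other members, it was higher in tumour 2 than in tumour 1 of the knockout label, here by 8.75 times. The gene, at chr17:35635752-35643695, is covered on the other strand by Sfta2, which was at 0.417 FPKM or less in every specimen. Only the gene spans were compared, not their exons. Where exons overlap, fragments of the pair cannot be told apart without strand information.

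Ctse encodes cathepsin E, an aspartic protease of gastric surface cells, and lies at chr1:131638306-131675505 with 10 exons in its consensus coding transcript. It was the member with a clear level in normal colon, at 26.8 and 34.1 FPKM in wildtype and 22.9 and 31.5 FPKM labelled knockout. Normal duodenum held 1.46, 2.15, 1.98 and 1.77 FPKM. Knockout-labelled duodenal tumours were at 168 and 263 FPKM and heterozygous ones at 192 and 47.4 FPKM, which is 22.0 to 122 times the highest normal duodenum. Ileum tumours lay at 133, 156, 135 and 128 FPKM. Colon tumours were at 28.9 to 82.1 FPKM and overlapped normal colon in 2 of 7 cases, both below its highest specimen.

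Anxa10 encodes an annexin, a calcium-dependent membrane-binding protein found in gastric epithelium and used as a marker of serrated tumours in human pathology. It had the highest ratio of the 8 genes, in any duodenal tumour, to the highest normal duodenum. Its level was 207 and 391 FPKM in the knockout-labelled duodenal tumours and 144 and 9.12 FPKM in the heterozygous ones, which is 310, 586, 215 and 13.7 times the highest normal duodenum. Wildtype duodenum was at 0.126 and 0.616 FPKM and knockout-labelled duodenum at 0.668 and 0.525 FPKM. Ileum tumours were at 22.7 and 45.2 FPKM with wildtype Cftr and at 42.6 and 85.0 FPKM labelled knockout, so the ileum groups overlapped. Colon tumours reached 5.18 and 1.22 FPKM in the ApcMin knockout label, 1.61 FPKM in the Apc wildtype colon tumour, and 0.429 FPKM or less in the other 4. The 1.61 FPKM is the mean of 3.05 FPKM in run 1 and 0.176 FPKM in run 2, and the run 2 value alone lies among those 4. The knockout-labelled duodenal tumours did not overlap the next group in order, the heterozygous ones, whereas those overlapped the ileum tumours. The Anxa10 promoter is shown because of its highest ratio to normal duodenum, with 3 matches in capitals. These are TATAAA 32 bases before the start site, and the AP-1 motif TGAGTCA at 180 and at 16 bases before it. Of all promoter windows of this length, 13.6% hold TATAAA, 5.20% hold TGAGTCA and 0.222% hold TGAGTCA at least 2 times.
Anxa10 promoter, chr8:62123144-62123443, minus strand: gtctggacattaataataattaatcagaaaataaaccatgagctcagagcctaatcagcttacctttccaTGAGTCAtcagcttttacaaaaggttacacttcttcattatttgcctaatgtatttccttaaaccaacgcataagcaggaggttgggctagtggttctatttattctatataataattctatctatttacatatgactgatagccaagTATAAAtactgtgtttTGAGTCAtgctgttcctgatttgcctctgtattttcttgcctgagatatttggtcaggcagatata

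RefSeq promoter windows of 250 bases before to 50 bases after the start were found for 4 of the 8 genes, the other being Dpcr1 (as Mucl3). They were searched on both strands for the 3 motifs above and for 3 more, and no matches overlapped. The TCF/LEF motif CTTTGAT is held by 3.73% of all windows, the forkhead motif TGTTTAC by 3.65% and the CDX motif CATAAA by 11.9%. None of these 3 was in the windows of the 4 genes, and the Dpcr1 window held none of the 6. A match is only a description of the sequence.

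**Figure D1:**
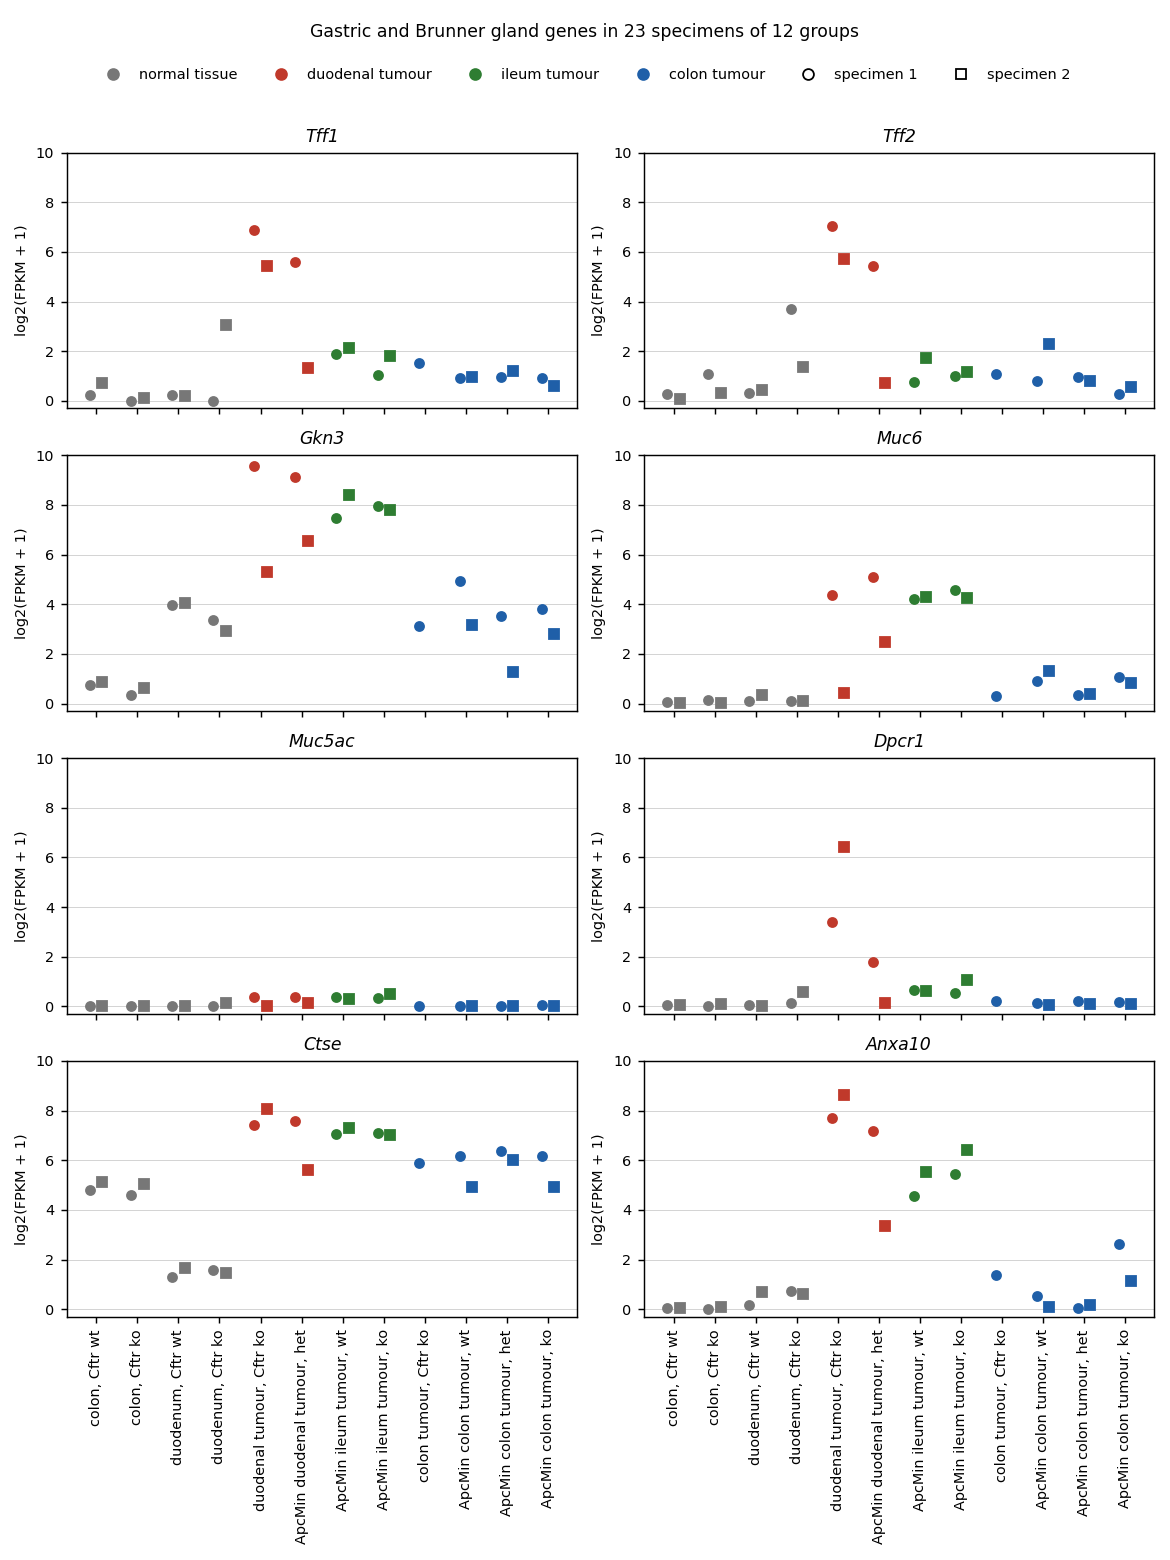
Level of each of the 8 genes, as log2(FPKM + 1) on the vertical axis, in 12 groups along the horizontal axis, with 1 point per specimen (circle specimen 1, square specimen 2) coloured by tissue. Red points (duodenal tumours) spread widely within a label, green points (ileum tumours) lie together and are low in Tff1, Tff2 and Dpcr1, and in Ctse the grey points of normal colon stand above those of normal duodenum.

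Set side by side, the 4 duodenal tumours each had their own mixture. Knockout-labelled tumour 1 held 7 of the 8 genes at 1 FPKM or more, 6 of them at 10 FPKM or more, with a sum of 1414 FPKM. Knockout-labelled tumour 2 held 6 genes at 10 FPKM or more, summed to 869 FPKM and had the highest Anxa10, Ctse and Dpcr1 of all specimens, while Muc6 was near its level in normal duodenum. Heterozygous tumour 1 also had 7 genes at 1 FPKM and 6 at 10 FPKM or more, with a sum of 1011 FPKM and with Dpcr1 at 2.49 FPKM. Heterozygous tumour 2 held 2 genes at 10 FPKM or more, Gkn3 and Ctse, and summed to 156 FPKM, with Anxa10 and Muc6 also above normal duodenum and Tff1, Tff2 and Dpcr1 within its range. Both heterozygous tumours came from 1 animal, and Tff2 differed 63.1-fold, Tff1 31.2-fold and Anxa10 15.8-fold between them. Ileum tumours were alike: each held 4 genes at 10 FPKM or more (Gkn3, Muc6, Ctse and Anxa10), and their sums ran from 356 to 562 FPKM. Normal duodenum summed to 16.7 to 24.3 FPKM. In bulk tissue, more cells of a kind and more RNA per cell cannot be told apart.

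**Figure D2:**
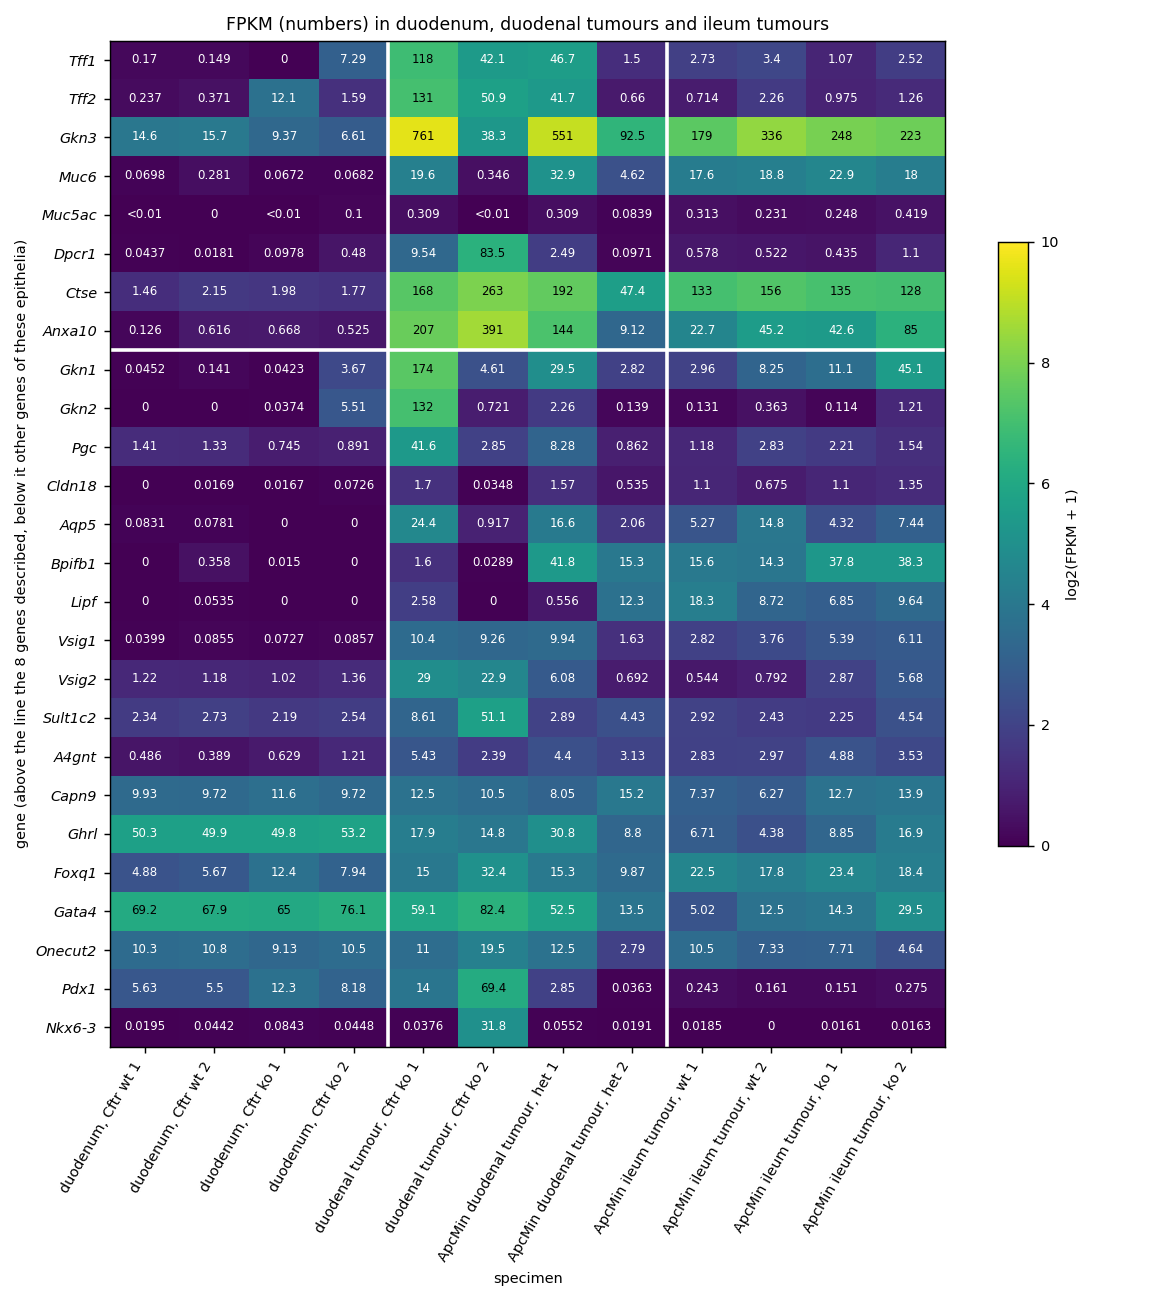
FPKM of the 8 genes (above the white line) and of 18 other genes of gastric and Brunner gland epithelium (below it) in each of 12 specimens, with colour giving log2(FPKM + 1) and the printed number the FPKM. Gkn1, Gkn2 and Pgc were highest in knockout-labelled duodenal tumour 1, Nkx6-3 and Pdx1 in tumour 2, and Bpifb1 was above 14 FPKM in the 6 ApcMin tumours shown.

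As mean log2(FPKM + 1), the knockout-labelled duodenal tumours differed from duodenum of the same label by 7.48 for Anxa10, 6.20 for Ctse, 4.64 for Tff1, 4.55 for Dpcr1, 4.28 for Gkn3, 3.83 for Tff2 and 2.30 for Muc6. Without tumour 1, Muc6 came to 0.33 and Gkn3 to 2.15. Over all genes tested 3.94% were called higher and 4.23% lower in this comparison (limma, adjusted p of 0.05 or less). Heterozygous duodenal tumours, read in run 1 alone and set against run 1 columns of normal duodenum, differed by 5.28 for Ctse, 4.78 for Anxa10, 4.21 for Gkn3, 3.72 for Muc6 and 2.63 for Tff1. Dpcr1 differed by 0.78 and Tff2 by 1.45, and they turned to -0.06 and -0.89 when heterozygous tumour 1 was left out. Without that tumour Tff1 came to 0.50, Anxa10 to 2.86 and Muc6 to 2.42. Of all genes, 9.71% were called higher and 9.26% lower. The 8 genes were chosen on these tumours, so nothing is read from these shares for them.

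The knockout-labelled and the heterozygous duodenal tumours were compared in run 1 columns. Their Apc genotype differed too, and both heterozygous tumours came from 1 animal, so Cftr, Apc and animal cannot be told apart here. Mean log2(FPKM + 1) was higher under the knockout label by 3.93 for Dpcr1, 3.34 for Tff2, 2.93 for Anxa10, 2.85 for Tff1 and 1.16 for Ctse, and lower by 0.36 for Gkn3 and 1.43 for Muc6. Without heterozygous tumour 2 these differences came to 3.09 for Dpcr1, 1.00 for Tff2, 1.01 for Anxa10, 0.72 for Tff1 and 0.16 for Ctse. Over all columns, 3 of the 7 genes (Dpcr1, Tff2 and Anxa10) did not overlap between the labels, as did 43.1% of all genes, so the share is near that of all genes. Without knockout-labelled tumour 2, Gkn3 turned to 1.78 and Muc6 to 0.48 and Dpcr1 came to 2.41. Without heterozygous tumour 1, Gkn3 turned to 0.93 and Muc6 came to -0.13. Over all genes 0.454% were called higher and 0.865% lower. Xist, the RNA that coats an inactive X chromosome, stood at 34.2 FPKM in knockout-labelled tumour 1 and at 0.0212 FPKM in tumour 2, and at 28.4 and 24.0 FPKM in the heterozygous ones. Its part in the result was not tested.

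A list of 32 other genes of these epithelia placed the 8 in context. The table held 31 of them, and 24 passed the filter for testing. In knockout-labelled duodenal tumours 3 of the 24 rose against duodenum of the same label and 0 fell (limma), beside 3.94% of all genes higher and 4.23% lower. These were Vsig1, a junction protein of gastric epithelium, by 3.32 ± 0.48 (SE) on the log2(FPKM + 1) scale (adjusted p = 0.00131), its relative Vsig2 by 3.62 ± 0.79 (adjusted p = 0.0149), and Sult1c2, a sulfotransferase, by 2.73 ± 0.78 (adjusted p = 0.0495). Vsig1 passed in all 10 alternatives, Vsig2 in 6 and Sult1c2 in 4. The median difference of the 24 genes was 0.69, against -0.01 for all genes. It was 0.53 over all 31 genes without the filter, which a gene can pass through the tumours alone, and 0.18 without duodenal tumour 1. The list was drawn up with earlier results known, so nothing is read from its counts or medians, here or in the comparisons that follow. Leaving out either knockout-labelled duodenum specimen left 1 call, and leaving out duodenal tumour 2 gave 7. In normal duodenum Vsig1 did not exceed 0.0857 FPKM, against 10.4 and 9.26 FPKM in these tumours, while normal colon held 2.31 to 5.12 FPKM and colon tumours 7.65 to 16.5 FPKM, so this gene was not limited to small-intestinal tumours.

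Heterozygous duodenal tumours had 3 of the 24 higher than normal duodenum and 0 lower (limma), beside 9.71% of all genes higher and 9.26% lower. That count is near the share of all genes called higher. A gene could again pass the filter through the tumours alone. Both tumours came from 1 ApcMin animal and normal duodenum from Apc wildtype mice. Tumour, Apc genotype, Cftr genotype and animal therefore cannot be told apart here. By limma, Bpifb1, a secreted lipid-binding protein of mucosal glands, was higher by 4.72 ± 0.45 (SE, adjusted p = 0.000641). Vsig1 was higher by 2.33 ± 0.49 (adjusted p = 0.0150, limma). A4gnt, the enzyme that makes the gland mucin sugar carried by Muc6, was higher by 1.52 ± 0.43 (adjusted p = 0.0416, limma). A4gnt passed in 6 of 11 alternatives and the others in all 11. The median of the 24 was 0.52, against 0.01 for all genes, and 0.11 over all 31 without the filter. Leaving out heterozygous tumour 1 gave 4 higher and 2 lower, and counting the wildtype duodenum as 2 specimens gave 6 higher and 2 lower.

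Between the labels 1 of the 24 was higher and 1 lower in the knockout-labelled tumours (limma). Pdx1, a transcription factor of duodenum, antrum and pancreas, was higher by 4.04 ± 0.74 (SE; adjusted p = 0.0467), with 14.0 and 69.4 FPKM against 2.85 and 0.0363 FPKM. Bpifb1 was lower, with a difference of -4.06 ± 0.48 (SE; adjusted p = 0.0124), with 1.60 and 0.0289 FPKM against 41.8 and 15.3 FPKM. The median of the 24 was 0.16, against -0.01 for all genes. Pdx1 passed in 4 of 8 alternatives and Bpifb1 in 6. Here too both heterozygous tumours were from 1 animal. The count was 4 without knockout-labelled tumour 1, 0 without tumour 2, 6 without heterozygous tumour 1 and 1 without heterozygous tumour 2. Bpifb1 was also at 14.3 to 38.3 FPKM in the ileum tumours, where Muc6 was above 17 FPKM.

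Of the transcription factors, Nkx6-3, a regulator of antral gland cells, was at 31.8 FPKM in knockout-labelled duodenal tumour 2 and at 0.203 FPKM or less in the 22 other specimens. Sox2 and Barx1, which specify stomach, were at 0.296 and 0.0790 FPKM or less everywhere. Gata4, which marks proximal small intestine, was at 65.0 to 76.1 FPKM in normal duodenum, 59.1 and 82.4 FPKM in the knockout-labelled tumours and 52.5 and 13.5 FPKM in the heterozygous ones. Heterozygous tumour 2, lowest in Tff1, Tff2, Dpcr1 and Anxa10 among duodenal tumours, was thus also lowest in Gata4 and Pdx1. Among chief, parietal and endocrine cell products, Pgc, a pepsinogen also made by Brunner glands, was at 41.6 FPKM in knockout-labelled tumour 1 and at 8.28 FPKM in heterozygous tumour 1. Atp4b, the proton pump subunit of parietal cells, was at 1.01 FPKM in the former and at 0.134 FPKM or less elsewhere, and Gast, the antral hormone gastrin, at 0.247 FPKM or less. Lipf, gastric lipase, was at 6.85 to 18.3 FPKM in the ileum tumours and 12.3 FPKM in heterozygous duodenal tumour 2. Ghrl, the hormone ghrelin, was at 49.8 to 53.2 FPKM in normal duodenum and at 8.80 to 30.8 FPKM in duodenal tumours, below normal in all 4.

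Specimens of the Cftr labels were compared in 4 tests that did not choose the 8 genes, over the 7 that passed the filter (limma). In ApcMin tumours each label was 1 animal, so there the label cannot be told apart from the animal. In normal colon 0 of 7 passed at an adjusted p of 0.05, as did 0% of all 14098 genes. Of the 7, 2 (Tff2 and Ctse) reached 1 FPKM in any normal colon specimen, and the others passed the filter through other tissue, so for them this comparison has little signal to test. Unadjusted p was under 0.05 for 948 genes and for 0 of the 7. In normal duodenum 0 of 7 and 0% of all genes passed, with 368 and 0 at an unadjusted p under 0.05. There 4 of the 7 reached 1 FPKM in any specimen (Tff1, Tff2, Gkn3 and Ctse). Tff2 had the largest difference there, 2.16 ± 1.41 (SE; adjusted p = 1.0), from 12.1 and 1.59 FPKM against 0.237 and 0.371 FPKM, the last 2 counted as 1 sample. It came to 0.99 without knockout-labelled duodenum 1 and to 3.33 without duodenum 2. Gkn3 was at 9.37 and 6.61 FPKM under the knockout label, against 14.6 and 15.7 FPKM in wildtype, with a difference of -0.86 ± 1.45 (SE; adjusted p = 1.0). The specimens of the 2 labels did not overlap in 4 of the 7 genes, as in 53.3% of all genes, so this share is near that of all genes. Both shares count the 2 wildtype specimens separately, although they were no further apart than the noise between lanes.

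In ApcMin colon tumours 0 of 7 passed, against 0.0638% of all genes. Anxa10 came closest, with 5.18 and 1.22 FPKM in tumours labelled knockout and 0.429 and 0.0732 FPKM in wildtype ones, a difference of 1.58 ± 0.89 (SE; adjusted p = 0.493). Over the alternatives its adjusted p ranged from 0.296 to 0.903. Without wildtype colon tumour 2, 1921 genes were called but 0 of the 7. ApcMin ileum tumours likewise had 0 of 7 called, against 0.121% of all genes, and Anxa10 differed by 0.89 ± 0.89 (SE; adjusted p = 0.999). The median difference of the 7 genes was -0.01 in colon, 0.22 in duodenum, -0.16 in colon tumours and -0.06 in ileum tumours, beside medians of all genes from 0.00 to 0.01. In ApcMin colon tumours 5 of the 7 reached 1 FPKM in any specimen, and in ileum tumours all 7 did. With 2 specimens a group, and 1 sample in wildtype duodenum, only differences well above these standard errors were detectable.

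Normal duodenum and normal colon, taken from the same animals, differed in which of the 8 genes they held. Gkn3 was higher in duodenum by 2.93 on the log2(FPKM + 1) scale, and Ctse higher in colon (duodenum minus colon -3.38), and in both genes the 4 specimens of each organ did not overlap. Anxa10 was at 0.126 to 0.668 FPKM in duodenum and at 0 to 0.0722 FPKM in colon, again without overlap, though all these values were low. For Tff1 and Tff2 the ranges overlapped. The organs were apart in 3 of the 7 genes tested and in 63.7% of all genes. Colon was labelled whole tissue and duodenum epithelium, and smooth muscle markers summed to 1718 to 2209 FPKM in normal colon against 627 to 706 FPKM in normal duodenum, whose part in these differences was not tested. Duodenum specimen 2 labelled knockout held 7.29 FPKM of Tff1, 3.67 FPKM of Gkn1 and 5.51 FPKM of Gkn2, while specimen 1 held 12.1 FPKM of Tff2 with Tff1 listed at 0. Specimen 1 also held pancreatic acinar transcripts, with 9 of 10 marker genes at 1 FPKM or more and a sum of 1523 FPKM, against 139 to 363 FPKM in the other normal duodenum specimens, most of it Clps, which was at 136 to 357 FPKM there. The acinar enzymes Ctrb1 and Cpa1 were at 491 and 65.0 FPKM in specimen 1 and at 1.89 and 0.209 FPKM or less in all other duodenal tissue and tumours. The part of these cells in its Tff2 was not tested.

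Markers of regenerative and fetal-like epithelium (Ly6a, Anxa1, Anxa3, Clu, Il1rn, Msln and Krt7) were also higher in small-intestinal tumours. Their sum was 111 to 151 FPKM in normal duodenum, 990.3 and 729 FPKM in knockout-labelled duodenal tumours 1 and 2, 1194 and 863 FPKM in heterozygous tumours 1 and 2 and 1637 to 1944 FPKM in ileum tumours. Normal colon had sums of 520 to 895 FPKM and colon tumours 974 to 1915 FPKM. The 8 genes, with Ctse left out, summed to 3.96 to 32.5 FPKM in these colon tumours. The 12 squamous markers of the forestomach summed to 1.18 to 1.70 FPKM in normal duodenum, 5.22 to 15.0 FPKM in duodenal tumours, 16.7 to 25.0 FPKM in ileum tumours and 5.23 to 58.3 FPKM in colon tumours. Krt14 led them in the duodenal tumours at 1.49 to 7.55 FPKM, while the defining genes Krt5 and Trp63 stayed at 0.161 and 0.0755 FPKM or less in all specimens. Goblet cell markers summed to 7371 to 14643 FPKM in duodenal tumours and to 7434 to 9445 FPKM in normal duodenum. Smooth muscle markers summed to 444 and 83.6 FPKM in the knockout-labelled duodenal tumours and 343 and 454 FPKM in the heterozygous ones, against 627 to 706 FPKM in normal duodenum. The part of these cells in the levels of the 8 genes was not tested.

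**Figure D3:**
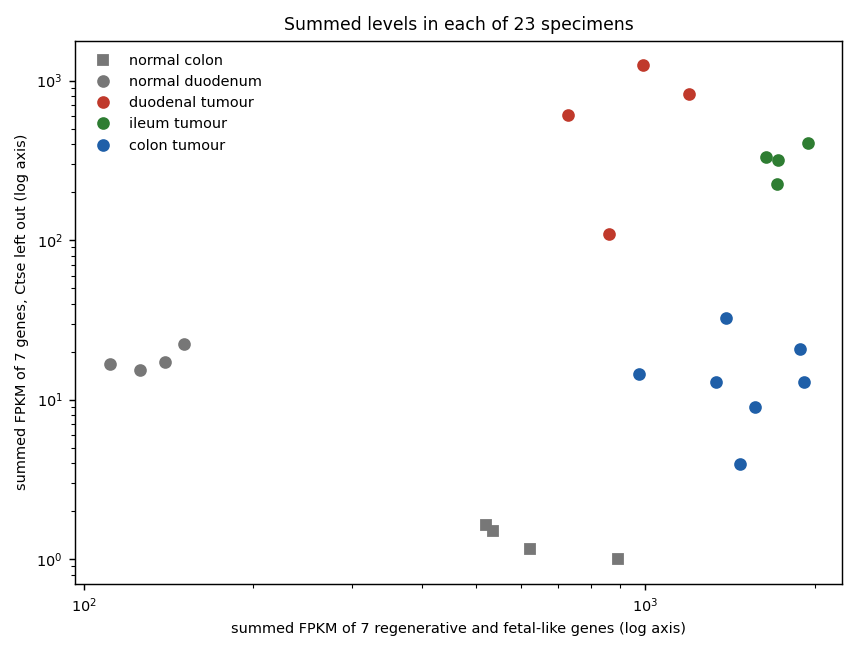
Summed FPKM of 7 of the genes (Ctse left out) on the vertical log axis against the summed FPKM of 7 regenerative and fetal-like genes on the horizontal log axis, with 1 point per specimen. Duodenal and ileum tumours lie at 109 to 1246 FPKM on the vertical axis and colon tumours at 3.96 to 32.5 FPKM, at similar horizontal positions.

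The 11 specimens read in both runs gave a check of low values. In duodenal tumours the runs were close, with Anxa10 at 209 and 205 FPKM in tumour 1 and at 403 and 380 FPKM in tumour 2. The runs of the Apc wildtype colon tumour were not close. Its run 1 library held 14.0 FPKM of Gkn3, 3.41 of Tff1, 3.05 of Anxa10, 1.93 of Tff2 and 0.433 of Muc6, and its run 2 library 1.63, 0.405, 0.176, 0.302 and 0.0558 FPKM. Ctse, at 60.6 and 57.3 FPKM, did not differ in this way. Wildtype colon 2 had Tff1 at 1.33 FPKM in run 1 and listed at 0 in run 2, and its run 1 library also held 6.38 FPKM of the duodenal factor Gata4, against 0.0835 FPKM in run 2. Wildtype duodenum 2 had 1.01 FPKM of Anxa10 and 0.510 FPKM of Muc6 in run 2 and 0.224 and 0.0521 FPKM in run 1. The highest Tff1 among colon tumours (1.90 FPKM) and in normal colon (0.667 FPKM) are means of such unlike libraries. Low values of the 8 genes therefore differed between libraries of 1 specimen by as much as between groups, as for Anxa10 in wildtype duodenum. Knockout-labelled duodenal tumours 1 and 2 had the same order in both runs for each of the 8 genes.

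**Figure D4:**
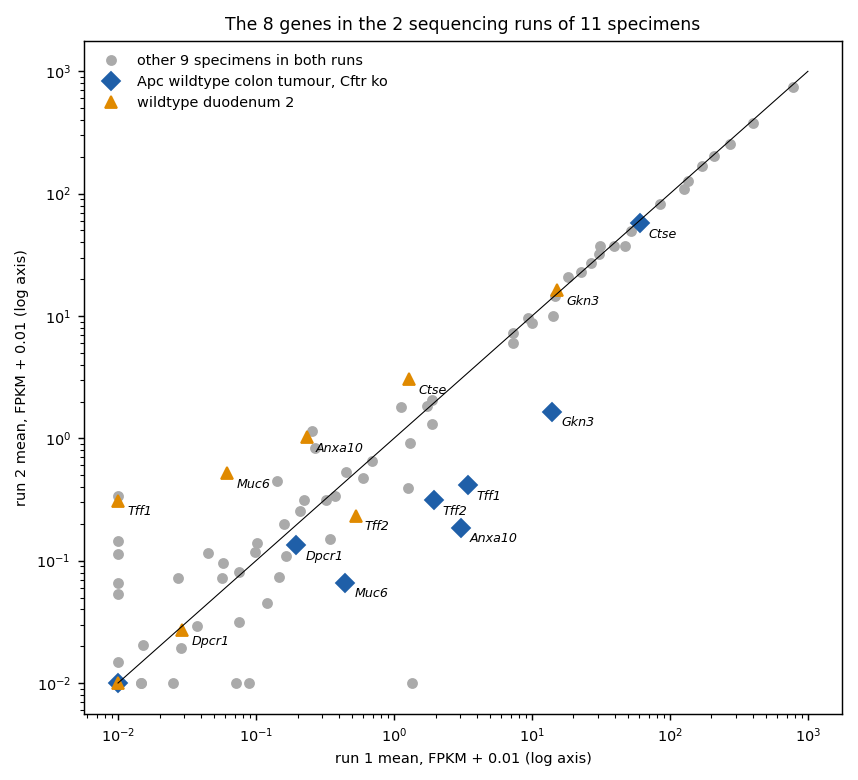
Run 2 against run 1 mean of each gene, as FPKM + 0.01 on log axes, for 11 specimens, with the line of equality. The Apc wildtype colon tumour (blue diamonds) lies below the line in Gkn3, Tff1, Tff2, Anxa10 and Muc6 and on it in Ctse, and wildtype duodenum 2 (orange triangles) lies above it in Anxa10, Muc6 and Ctse.

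Patterns over the 23 specimens were compared with the mean of the 7 genes that passed the filter, each put on a common scale. Most alike were 2310042E22Rik (r = 0.951), Asz1 (0.890), Tubb2a (0.890), Prrg4 (0.882) and Gch1 (0.880). Next came Gkn1 (0.879), Scgb1b27 (0.870), Slit2 (0.863), Galnt2 (0.863) and Onecut3 (0.860). These are Pearson correlations of log2(FPKM + 1) and are given as a description, since the specimens share animals and runs and the pattern is led by the duodenal tumours. The first of these, 2310042E22Rik, was at 11.5 and 19.9 FPKM in the knockout-labelled duodenal tumours, 5.08 and 0.651 FPKM in the heterozygous ones, 1.81 to 6.17 FPKM in ileum tumours and 0.0792 FPKM or less in normal duodenum. Single genes had different nearest patterns. Muc6 was nearest to Gpr64 (0.955), Asb4 (0.942) and Cldn18 (0.937), the last a gastric tight junction claudin. Gkn3 was nearest to Cfi (0.918), a complement regulator, which was highest in ileum tumours at 147 to 212 FPKM. Dpcr1 was nearest to Gm4788 (0.981), Cybrd1 (0.938) and Ncoa4 (0.928), the last 2 of which are linked to iron handling, and Cybrd1 was at 89.6 FPKM in knockout-labelled duodenal tumour 2 and 13.5 FPKM in tumour 1. Ctse was nearest to the simple-epithelium keratins Krt18 (0.939) and Krt7 (0.908), and Anxa10 to 2310042E22Rik (0.957). Tff1 and Tff2 were both nearest to Asz1 (0.926 and 0.903), a gene known from germ cells, at 3.11 and 2.24 FPKM in the knockout-labelled duodenal tumours.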

How the data were processed

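Total RNA was made into polyadenylated RNA-seq libraries, per the labels' protocols. The mm10 build, TopHat2 2.0.13, Cuffnorm and FastQC are listed, without their roles, in the submitters' processing notes. The authors deposited FPKM per lane, 68 columns in 23356 rows, and no counts, so no counting interval was computed. Column sums were 476233 to 801309, and the smallest value above 0 was 0.253 for Tff1 and 0.0567 for Anxa10, which limits low levels.

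Specimen means of the columns entered limma 3.58.1 (R 4.3.3) after log2(FPKM + 1), with a mean-variance trend and 1 spread shared by all groups. The filter kept 14098 genes that reached 1 FPKM in 2 or more specimens, with Benjamini-Hochberg adjustment at 0.05. Differences on this scale understate changes of low genes. The smallest p of an exact permutation test of 2 against 2 is 0.333. Comparisons with heterozygous duodenal tumours used run 1 columns. The script was tested on simulated data.

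The 8 genes and the gene lists were chosen with earlier results of these data known. Of the other gastric genes the text names those that passed a test and up to 4 per list with the highest FPKM. It also names the locus neighbours, the 10 genes most like the mean of the 7 tested and up to 3 per gene. Sox2, Barx1, Atp4b, Gast and Xist were added after their values were seen. Positions come from the GENCODE annotation of GRCm38 and promoters from RefSeq (GRCm38.p6). Results were recomputed without the filter, with a pseudocount of 0.1 FPKM, after quantile normalisation, in each run alone, with a replicate block and without each specimen, and with the wildtype duodenum as 2 specimens. Of 32 listed genes 1 was not in the table, and 1 marker of regenerative epithelium is not reported here.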

Additional observations from a re-analysis of the deposited data

How the results depend on the processing

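For the 8 genes, the counts of 0 called between Cftr labels in normal colon, normal duodenum, ApcMin colon tumours and ApcMin ileum tumours were 0 under each alternative run. With each specimen left out they were 0 to 0. In the groups compared by limma, same replicate numbers belong to different animals, so a replicate block has no basis in the labels. Deviations of same-numbered specimens correlated at 0.01, 0.11, 0.35 and 0.20 in these 4 comparisons, and at 0.06, 0.02 and -0.02 in those of duodenal tumours. With a replicate block the other gastric genes called numbered 4 for knockout-labelled duodenal tumours against duodenum and 4 between the labels, against 3 and 2. For heterozygous tumours against duodenum the replicate block needs the wildtype duodenum as 2 specimens and gave 8, against 3 as reported. Counts with each specimen left out ranged from 1 to 7, from 2 to 6 and from 0 to 6. Between the labels the count was 0 with a pseudocount of 0.1 FPKM and 1 with no filter. Counting the wildtype duodenum as 2 specimens, an alternative chosen after seeing the data, also gave 8, without a block. The cause was not tested. Over all genes, the counts of 0, 0, 9 and 17 called between Cftr labels reached 27, 31, 1921 and 50 under some alternative and fell to 1 and 3 in colon and ileum tumours under others. Those of duodenal tumours, 1151, 2675 and 186, ranged from 418 to 1238, from 1929 to 4083 and from 25 to 1833.

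For single genes in the comparisons of duodenal tumours, differences changed sign only when 1 tumour was left out. For heterozygous tumours against duodenum, Dpcr1 ranged from -0.0574 to 1.61 and Tff2 from -0.89 to 3.79. Between the labels, Gkn3 ranged from -2.49 to 1.78 and Muc6 from -3.34 to 0.48, with Gkn3 at 0.93 without heterozygous tumour 1. A pseudocount of 0.1 FPKM moved 9 single-gene differences by more than the spread between specimens, none of them in sign. These 9 include differences between normal duodenum and normal colon. There Gkn3 went from 2.93 to 4.08, Ctse from -3.38 to -3.90 and Anxa10 from 0.51 to 2.04. The median of the 7 genes in normal duodenum, 0.22, was -0.00106 in run 2 columns alone and -0.02 without wildtype duodenum 1. In ApcMin colon and ileum tumours it reached 0.08 and 0.20 with 1 wildtype tumour left out. Libraries of 1 specimen differed at low values and, for Gkn3, at 14.0 against 1.63 FPKM.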
